A study of Homo sapiens with 8 samples.

Results

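The LMF1-SOX8 stretch is a block of chromosome 16 (hg19 chr16:836000-1085000) that holds the genes CHTF18 (chr16:838622-848074), LMF1 (chr16:903635-1020988) and SOX8 (chr16:1031808-1036979). It was chosen from the data, because CpGs there had gained methylation between passages 6 to 8 and passages 27 and 28. The values of that contrast are therefore given as a description, and nothing is read from a count of trend calls that uses it. Its members are the 2136 CpGs of the block that were listed in all 8 files, out of 2423167 such CpGs on the autosomes. They were read in tiles of 1000 bases, and a tile's methylation level is the share of methylated reads over its CpGs in 1 library. Reads of a tile are summed over its CpGs, so a read that spans several CpGs is counted at each. Intervals and upper limits from tile reads take these counts as separate and can be too narrow. Of 179 tiles with a shared CpG, 157 had at least 3 shared CpGs and at least 10 reads in every library, and these hold 2092 of the 2136 CpGs. The other 22 tiles were too thin to give a level. Tiles were split by their starting level, the mean of passages 6 to 8. A total of 23 tiles started under 20% (low-start tiles) and 134 started at 20% or more (high-start tiles). The regions on either side, chr16:600000-836000 (the left flank, 186 tiles) and chr16:1085000-1320000 (the right flank, 193 tiles), served for comparison.

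The cells are HUES64, an established human embryonic stem cell line, and every library carries the knockout of DNMT3A and DNMT3B (also spelled DMNT3A/3B in the labels), so the comparison is between passages and no library with both enzymes intact was analysed here. Methylation was measured by reduced representation bisulfite sequencing (RRBS), which reads CpG-rich fragments of the genome after conversion of unmethylated cytosine. There was 1 library at each of passages 6, 7, 8, 11, 13, 17, 27 and 28, referred to as early (passages 6 to 8), middle (passages 11 to 17) and late (passages 27 and 28). Whether all of them come from a single clone is not given in the labels, and a standard deviation (SD) across libraries here mixes library preparation and passage. Reads over listed CpGs numbered between 19898423 at passage 11 and 44599588 at passage 6, and the median tile of the stretch had between 93 and 208 reads, depending on the library.

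DNMT3A and DNMT3B place methyl groups on unmethylated CpGs, while DNMT1 copies an existing pattern onto the new strand after replication. Without the first pair, a methyl group that is not copied cannot be put back by these enzymes. The promoters of most human genes lie in CpG islands, which stay unmethylated in embryonic stem cells, whereas gene bodies are usually methylated. CHTF18 encodes a subunit of a clamp loader that acts with PCNA at replication forks and in sister chromatid cohesion. LMF1 encodes a protein of the endoplasmic reticulum membrane that lipoprotein lipase needs to fold, and SOX8 encodes a transcription factor of the SOXE group, known from neural crest, muscle and testis.

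Sequences upstream of 2 of the 3 genes were at hand in RefSeq (build GRCh38.p14, whose positions differ from those of hg19), and none was found for SOX8. They are shown because both are rich in CpGs and because the tiles at these gene starts, which were near 0 early, ended at different levels. Each run is the 250 bases upstream of an annotated start, on the strand of the gene, and capitals mark the CpGs.
CHTF18: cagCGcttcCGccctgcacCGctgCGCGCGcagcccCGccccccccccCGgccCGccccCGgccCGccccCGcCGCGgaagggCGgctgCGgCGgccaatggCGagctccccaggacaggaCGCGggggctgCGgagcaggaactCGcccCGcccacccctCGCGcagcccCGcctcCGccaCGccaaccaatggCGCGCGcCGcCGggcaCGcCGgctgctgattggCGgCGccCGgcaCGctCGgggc
LMF1: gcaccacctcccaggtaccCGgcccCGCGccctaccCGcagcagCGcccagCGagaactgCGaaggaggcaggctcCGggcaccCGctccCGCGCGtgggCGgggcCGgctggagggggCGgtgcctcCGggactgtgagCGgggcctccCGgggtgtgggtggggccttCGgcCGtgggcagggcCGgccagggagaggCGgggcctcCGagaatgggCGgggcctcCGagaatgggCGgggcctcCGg

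The CHTF18 run (chr16:788370-788619, plus strand, GRCh38.p14) holds 40 CpGs and the LMF1 run (chr16:971000-971249, minus strand, GRCh38.p14) holds 27. The median over 35116 RefSeq promoters of the same length was 11. Only 2.16% of those promoters had as many CpGs as that of CHTF18, and 17.7% had as many as the LMF1 run shown. Another annotated start of LMF1 has an overlapping run (chr16:970985-971234, GRCh38.p14) with 28 CpGs, a number reached by 15.9% of promoters. Single CpGs of these runs were not matched to the hg19 files, and the levels below are those of the hg19 tile that holds each gene's first base. For LMF1, on the minus strand, that tile lies almost wholly on the transcribed side, and the adjoining upstream tile is given with the region between LMF1 and SOX8.

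The 3 gene starts ended at different levels. At the start of CHTF18 (tile chr16:838001-839000, 66 CpGs, 516 to 1432 reads per library) methylation was 0.42%, 0.16% and 0% at passages 6, 7 and 8, 0%, 0.39% and 0% at passages 11, 13 and 17, and 0.68% and 0.13% at passages 27 and 28. This promoter was close to 0 in all 8 libraries. At the start of LMF1 (tile chr16:1020001-1021000, 33 CpGs, 298 to 613 reads) the level was 0%, 0.27% and 0% early, 0%, 0.27% and 0% in the middle, and 4.70% at passage 27 and 8.35% at passage 28. Both late libraries lay above all 6 earlier ones, in which only 2 of 2324 reads were methylated. The 741 late reads gave 6.88% (95% Wilson interval 5.27 to 8.94%, counting error only, reads of each CpG taken as separate). At the start of SOX8 (tile chr16:1031001-1032000, 67 CpGs, 440 to 911 reads) the early levels were 0.11%, 0.39% and 0%, the middle ones 0% in each library, and the late ones 0% at passage 27 and 2.02% at passage 28. The value for SOX8 thus rests on passage 28 alone.

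**Figure D1:**
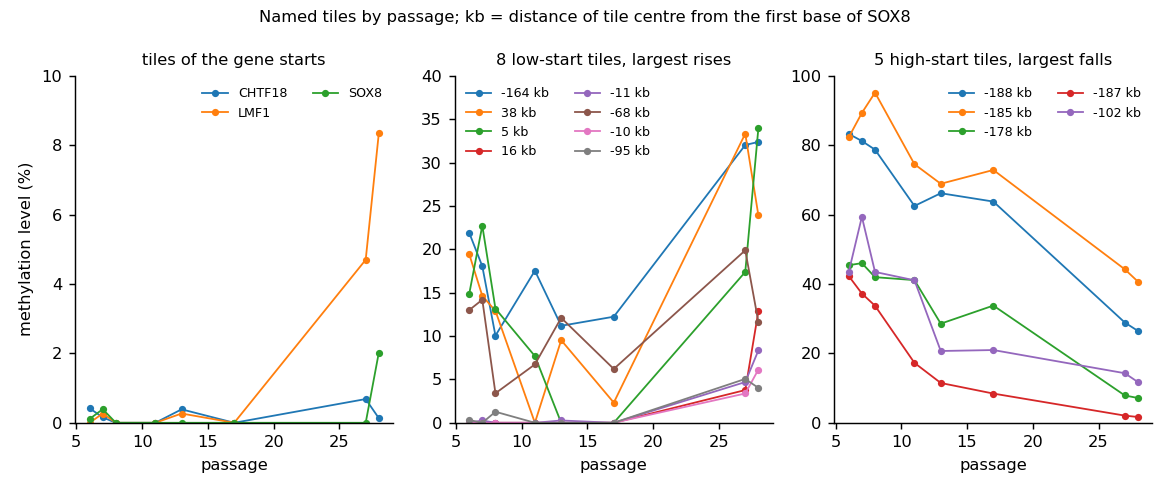
Methylation level in percent (y axis, a different range in each panel) against passage (x axis), with 1 line per tile; names in kb give the distance of the tile centre from the first base of SOX8. The LMF1 start reaches 8.35% at passage 28 while the CHTF18 start stays under 1%, the 8 low-start tiles have late means above their middle means, and the tiles with the largest falls are lower in every late library than in any earlier one.

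On average, low-start tiles of the stretch were lower in the middle passages than early, and late they stood near their starting mean. Averaged over the 23 tiles, the level was 7.31%, 8.36% and 6.55% at passages 6, 7 and 8 (7.40% ± 0.91, SD, n = 3), then 3.87%, 3.8% and 3.40% at passages 11, 13 and 17, and 7.67% and 8.63% at passages 27 and 28. Both late values lay above all 3 middle ones and overlapped the early ones. From early to late the mean differed by 0.748 points, less than the SD of the early libraries. For the class mean, the name "late gains" thus holds against the middle passages and not against the start. The 12 tiles starting under 5% averaged 1.03%, 0.72% and 0.36% early, 0.37%, 0.21% and 0.63% in the middle, and 2.05% and 3.61% late. Of these, 9 ended above their early mean. The 11 tiles starting at 5 to 20% averaged 14.7% early, 7.29% in the middle and 14.0% late, and 4 ended above their early mean. In the left flank, 58 low-start tiles went from 4.13% ± 0.34 (SD, n = 3) early to 0.976% and 1.002% late. In the right flank, 51 such tiles went from 7.34% ± 0.54 (SD, n = 3) to 6.10% and 5.75%, and over all 45557 low-start autosomal tiles the mean went from 2.73% ± 0.21 (SD, n = 3) to 1.18% and 1.12%. The stretch was the only one of these 4 sets whose late mean stood above its early mean.

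High-start tiles of the stretch were lower in each middle library than early, and late they stood where they had been at passage 17. Their mean was 66.4%, 66.7% and 64.2% early (65.8% ± 1.36, SD, n = 3), 59.5%, 57.7% and 55.7% in the middle, and 55.8% and 55.3% late. The late libraries lay at the level of passage 17. High-start tiles of the left flank stood at 66.2% ± 0.78 early (SD, n = 3), 54.3% at passage 17, and 44.0% and 40.8% late. Those of the right flank stood at 58.9% ± 1.32 early (SD, n = 3), 47.7% at passage 17, and 35.6% and 34.8% late. The difference between late and early was -10.2 points in the stretch, -23.8 in the left flank and -23.7 in the right flank, and -11.7 over 191639 high-start autosomal tiles. Over all high-start tiles the stretch is thus close to the autosomal mean and its flanks lie below it. The autosomal tiles started higher, at 76.2%, and at like starting levels the 2 sets differed. The difference was -4.34 points in the stretch and -17.5 over the autosomes for starts of 20 to 40%, and -10.1 and -21.1 for 40 to 60%. It was -10.7 and -11.3 for 60 to 80%, and -13.2 and -9.73 for 80% or more. Between middle and late passages all high-start tiles of the stretch differed by -2.10 points and those of the autosomes by -8.13.

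**Figure D2:**
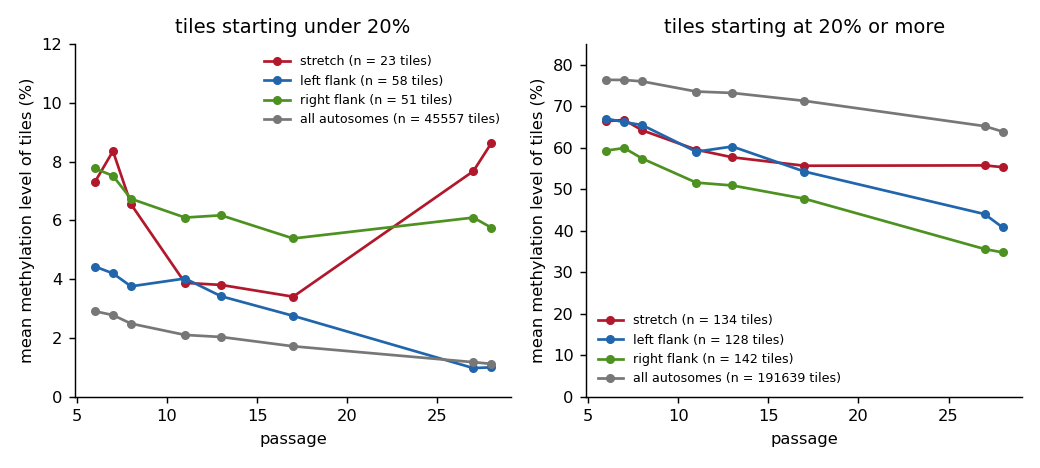
Mean methylation level of tiles in percent (y axis) against passage (x axis) for tiles starting under 20% (left panel) and at 20% or more (right panel), in the stretch, both flanks and all autosomes. In the stretch the low-start mean returns from 3.40% at passage 17 to 8.63% at passage 28 and the high-start mean is 55.7% and 55.3% at those passages, while the left flank is lower at passage 28 than at passage 17 in both panels.

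Up to passage 17 the stretch and its flanks had like shares of called losses. A quasi-binomial trend of reads on passage was fitted to all autosomal tiles over passages 6 to 17, which leaves out the late libraries but shares the early ones with the choice of the stretch. A call needed an adjusted p under 0.05 and a fitted change of at least 10 points. Losses were called in 35 of 146 tested tiles of the stretch (23.97%), in 35 of 156 of the left flank (22.4%) and in 43 of 181 of the right flank (23.8%), against 6.3% of all autosomal tiles tested. All 3 regions had a larger share of losses up to passage 17 than the autosomes. Their tiles were also read more deeply. The median was 115.5 reads per tile and library in the stretch, 133 in the left flank and 132 in the right flank, against 52 over the autosomes. Whether depth accounts for the larger share was not tested. Gains were called in 0 tiles of the stretch by this fit, with limma's moderated dispersion, and 0 had an unadjusted p under 0.05 upward, against a background of 0.111%.

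Over passages 6 to 28, the contrast that chose the stretch, the same fit called 36 of 155 tiles as losses, beside a background of 23.6%, and 3 as gains, beside a background of 0.104%. These 2 counts describe the choice and support nothing. The background tiles were also less deeply read. With only CpGs of 10 reads in every library, 23.7% of tested tiles of the stretch and 47.6% of those of the autosomes were losses. In the left flank 91 of 162 tiles were called as losses and 0 as gains (0 upward with an unadjusted p under 0.05, limma's moderated dispersion). In the right flank 107 of 183 were called as losses and 4 as gains, a share no smaller than that of the stretch. The 3 gains of the stretch were the tiles chr16:867001-868000, chr16:1047001-1048000 and chr16:1080001-1081000. Without passage 27 only 1 gain was called, and without passage 28 none was, with limma's moderated dispersion. On logit levels limma called 0 gains in the stretch, beside 0.0624% of autosomal tiles.

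The upturn after passage 17 was counted tile by tile. Both late libraries lay above all 3 middle libraries in 39 of the 157 tiles (24.8%), beside 3.81% of all autosomal tiles, 7 of 186 tiles in the left flank and 16 of 193 in the right flank. The late libraries took part in the choice of the stretch, so this count too is a description. Late libraries above the middle ones were found in 12 of 23 low-start tiles of the stretch (background 2.86%), 2 of 58 in the left flank and 10 of 51 in the right flank. Among high-start tiles they were found in 27 of 134 (background 4.03%), 5 of 128 and 6 of 142. Of the 39 tiles, 34 had a lower mean in the middle than early, and 26 ended above their early mean. Of the other 118 tiles of the stretch, 94 had a lower middle mean and 13 ended above their early mean. Picking tiles by late levels above middle ones favours both traits. Both late libraries lay above all 6 earlier ones in 7 of 23 low-start tiles of the stretch, 1 of 58 in the left flank and 7 of 51 in the right flank, beside 1.21% of autosomal low-start tiles. Both late libraries lay below all 3 middle libraries in 40 tiles of the stretch (background 29.8%), 103 of the left flank and 100 of the right flank. A model with a change of slope after passage 17, added after the values were seen, called an upward change in 25 of 155 tiles (background 0.579%) and a downward one in 0 (background 1.28%, 9 with an unadjusted p under 0.05, limma's moderated dispersion). The model uses the late and early libraries that chose the stretch, so its counts are a description of that choice too. Without the library of passage 17, 7 upward changes were called.

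The tiles with an upturn had a median of 11 CpGs, against 10 in the other 118 tiles of the stretch, and a median of 142 reads per library against 107. They started lower, at a median of 34.3% against 73.3%, and 24 of the 39 lay within 60 kilobases of the first base of SOX8, against 42 of the other 118. The number of CpGs was thus nearly the same, and depth, starting level and place were not. At like starting levels the late mean of the stretch was above those of its flanks. The late libraries took part in the choice of the stretch, so these values are a description. Among tiles with early means of 20 to 40%, the 25 of the stretch went from 21.0% in the middle to 27.1% late. In this class, 22 in the left flank went from 21.5% to 11.7%, 32 in the right flank from 22.3% to 13.0%, and the autosomal mean from 23.1% to 12.8%. In the class with early means of 80% or more, the 43 of the stretch went from 83.0% to 74.5%, the 45 of the left flank from 81.3% to 66.4% and the 27 of the right flank from 75.9% to 58.9%. In this highest class the late mean of the stretch, too, was below its middle mean (-8.48 points, beside -6.28 over the autosomes).

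**Figure D3:**
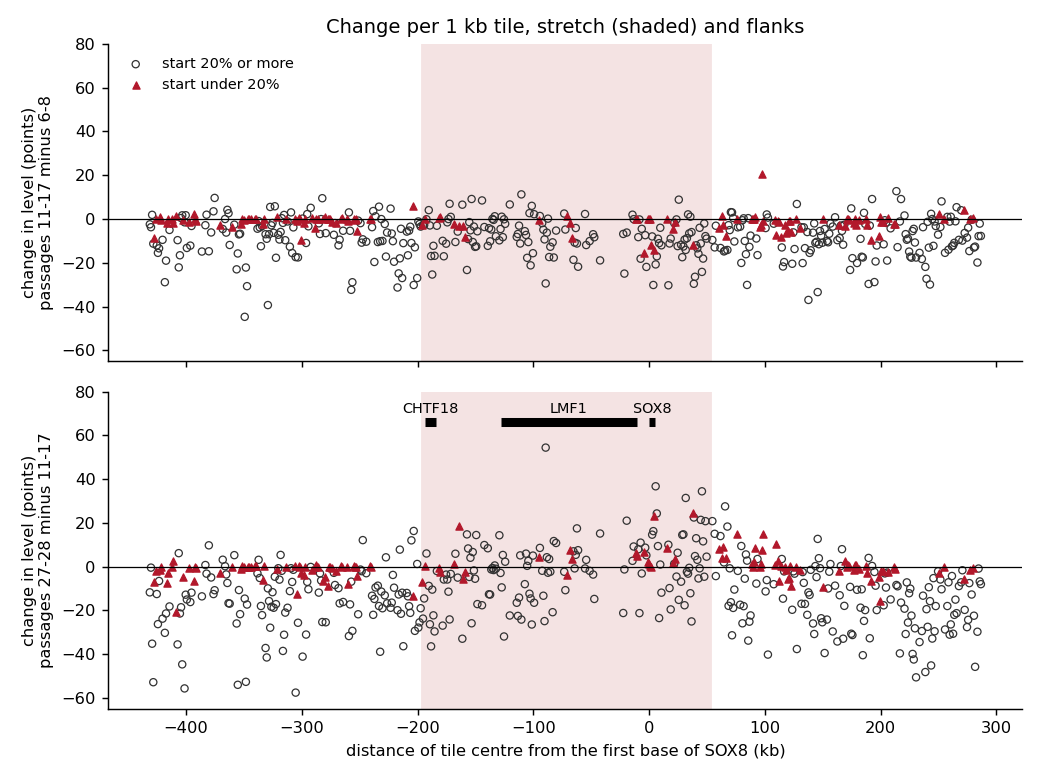
Change in methylation level in points (y axis) of each 1 kilobase tile against the distance of its centre from the first base of SOX8 in kilobases (x axis), from early to middle passages (upper panel) and from middle to late passages (lower panel); triangles are low-start tiles, circles high-start tiles, shading is the stretch and bars are genes. In the upper panel most tiles lie at or below 0 in the stretch and its flanks. In the lower panel tiles above 0 gather from the part of LMF1 nearer SOX8 to beyond SOX8. In the right flank, 16 tiles also have both late libraries above the middle ones.

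Along the stretch the pattern changed from CHTF18 to SOX8. In windows of 50 kilobases, the mean difference between late and middle passages was -13.5 points over 39 tiles of chr16:800001-850000, which holds CHTF18, and -3.91 and -4.87 points in the next windows. It was 2.23 points over 17 tiles of chr16:950001-1000000, 4.59 over 30 tiles of chr16:1000001-1050000 and 5.70 over 41 tiles of chr16:1050001-1100000. It was -6.23 and -11.2 points in the windows that follow. The window chr16:800001-850000 also holds tiles of the left flank, and chr16:1050001-1100000 also holds tiles of the right flank. Inside the stretch alone, the mean difference was -18.3 points over the 7 tiles of CHTF18 and 4.10 over the 39 tiles beyond SOX8. Only 3 of the 15 windows from 600001 to 1320000 had a mean above 0, and these 3 adjoin each other. The upper end of the stretch is no sharp border. The last tile inside (chr16:1081001-1082000) went from 64.0% in the middle to 68.6% late, and the first tile outside (chr16:1086001-1087000) from 17.6% to 38.4%. At the lower end, the first tile inside (chr16:836001-837000) went from 84.5% to 60.7% and the last outside (chr16:835001-836000) from 8.39% to 1.57%.

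CHTF18 was lower late than at any earlier passage, as the left flank was. The 7 tiles centred in the gene, all high-start, averaged 70.9%, 70.4% and 65.2% early, 59.6%, 58.4% and 58.3% in the middle, and 42.0% and 38.9% late. Of the 5 high-start tiles with the largest falls in the stretch, 3 lie in this gene. In the tile chr16:843001-844000 (14 CpGs, 133 to 293 reads) the level was 83.3%, 81.2% and 78.7% early, 62.5%, 66.2% and 63.8% in the middle, and 28.9% and 26.5% late. In the tile chr16:846001-847000 (14 CpGs) it went from 88.9% ± 6.46 (SD, n = 3) to 44.2% and 40.7%, and in the tile chr16:844001-845000 (10 CpGs) from 37.8% ± 4.31 (SD, n = 3) to 2.07% and 1.67%. In these 3 tiles every late value lay below every earlier one. The 1 tile of the gene that stood higher late than early was the one nearest its start, chr16:839001-840000, which went from 64.1% early to 71.8% and 68.1%.

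The 39 tiles between CHTF18 and LMF1 held opposite patterns. GNG13, a G protein subunit gene, follows CHTF18 directly in RefSeq. Close to CHTF18, the tile chr16:853001-854000 (15 CpGs) went from 44.5% ± 2.18 early (SD, n = 3) to 7.87% and 7.14% late, and the tile chr16:854001-855000 (14 CpGs) from 24.1% ± 5.04 (SD, n = 3) to 1.47% and 0.93%. Farther on lies the low-start tile with the largest rise of the stretch, chr16:867001-868000 (28 CpGs, 211 to 634 reads). It had 21.9%, 18.1% and 10.05% early, 17.5%, 11.2% and 12.2% in the middle, and 32.0% and 32.4% late. Both late libraries were above all earlier ones, and the pooled reads gave 18.6% early (95% Wilson interval 16.5 to 20.9%) and 32.2% late (28.9 to 35.7%). At the end of this gap, the tile chr16:896001-897000 (35 CpGs, 1137 to 2644 reads) stayed between 95.3% and 96.9% in all 8 libraries, and it was the deepest of the 5 high-start tiles with the highest late levels.

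Within LMF1, the mean at passage 28 was close to that at passage 17. Its 54 tiles averaged 63.1%, 64.1% and 64.2% early, 58.1%, 57.5% and 55.3% in the middle, and 55.2% and 54.3% late. Of its 49 high-start tiles, 9 had both late libraries above all middle ones, beside the background of 4.03% for high-start tiles. The tile with the largest fall, chr16:929001-930000 (8 CpGs, 46 to 145 reads), went from 43.4%, 59.4% and 43.5% early to 14.3% and 11.7% late. Another tile of the gene, chr16:942001-943000 (4 CpGs, 21 to 96 reads, named after its values were seen), had the largest difference between late and middle passages in the stretch. It had 34.4%, 53.8% and 32.7% early, 11.8%, 2.63% and 18.2% in the middle, and 63.8% and 66.7% late. All middle values lay below all early ones and both late values above all others, at a late depth of 68 reads over both libraries (64.7%, 95% Wilson interval 52.84 to 74.998%). Tiles of 1 gene body thus ended on opposite sides of their starting level.

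Of the 5 low-start tiles in LMF1, 3 ended higher than they started. Beside the gene start described above, the tile chr16:936001-937000 (24 CpGs, 142 to 306 reads) had 0.33%, 0% and 1.27% early, 0% in each middle library, and 5.06% and 4.02% late. The tile chr16:963001-964000 (13 CpGs) had 13.0%, 14.2% and 3.40% early, and 19.9% and 11.6% late, so that its groups overlapped. LMF1 also held 3 of the 5 high-start tiles with the highest late levels, among them chr16:907001-908000, fully methylated in 7 of 8 libraries at 15 to 48 reads.

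Between LMF1 and SOX8 the low-start tiles were near 0 in the middle passages and stood higher late. The 4 low-start tiles averaged 5.31%, 5.40% and 3.58% early, 0.81%, 0.82% and 0.75% in the middle, and 3.08% and 5.74% late. The early average came mainly from the tile chr16:1027001-1028000, described below. The tiles chr16:1021001-1022000 and chr16:1031001-1032000 were near 0 early as well. The tile next to the LMF1 start, chr16:1021001-1022000 (20 CpGs, 78 to 218 reads), had 0 methylated reads of 817 in the 6 earlier libraries, which allows a level of up to 0.367%, and 3.38% and 6.14% late. The tile chr16:1027001-1028000 (10 CpGs), at 18.7% ± 4.20 (SD, n = 3) the tile just under the 20% limit, had 3.23%, 3.28% and 2.60% in the middle and 7.43% and 11.97% late. Here the late values lay between the middle and the early ones.

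SOX8 had the largest difference between early and middle passages of the 3 genes. Its 5 tiles averaged 22.4%, 26.3% and 17.96% early, 13.2%, 10.8% and 4.25% in the middle, and 19.6% and 20.9% late. The late values were inside the range of the early ones. At its 3′ end, the tile chr16:1036001-1037000 (6 CpGs, 13 to 54 reads) had 14.8%, 22.7% and 13.2% early, 7.69%, 0% and 0% in the middle, and 17.4% and 34.0% late. Nearer the start, the tile chr16:1033001-1034000 (22 CpGs) had 6.27%, 25.6% and 7.25% early and did not return, with 0%, 1.63% and 2.27% in the middle and 0.83% and 1.53% late. The CpG island at the gene start, whose tile is described above, and the first tile inside the gene, chr16:1032001-1033000, stayed at or under 2.02% in all libraries.

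**Figure D4:**
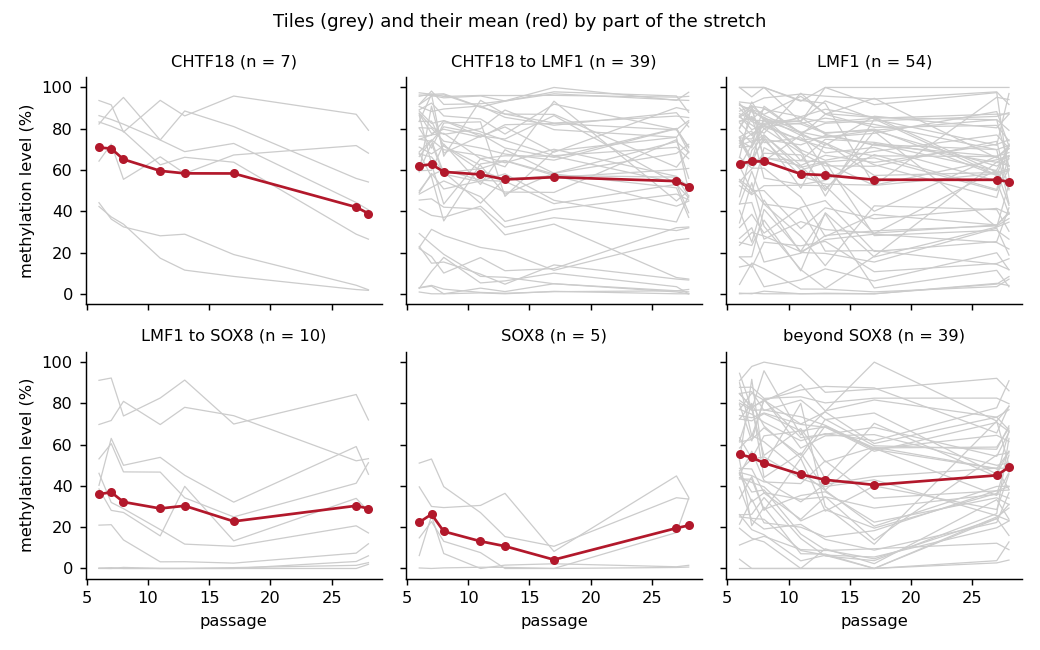
Methylation level in percent (y axis) against passage (x axis) of the tiles of each part of the stretch (grey lines) and their mean (red), with the number of tiles in the panel titles. The CHTF18 mean ends at 38.9%, the LMF1 mean stays near 55% from passage 17 on, and the SOX8 mean dips to 4.25% at passage 17 and stands at 20.9% at passage 28.

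Beyond SOX8, the 39 remaining tiles had the largest number of upturns of any part of the stretch, with 14 whose late libraries were both above the middle ones. Their mean was 55.3%, 53.8% and 51.1% early, 45.6%, 43.0% and 40.5% in the middle, and 45.1% and 49.1% late. Adjoining SOX8, the tile chr16:1037001-1038000 (11 CpGs, 62 to 150 reads, named after its values were seen) had 26.0%, 26.3% and 34.4% early, 14.5%, 6.02% and 3.797% in the middle, and 26.6% and 63.0% late. The late libraries differed from each other here by more than the early ones did. The next tile, chr16:1038001-1039000 (11 CpGs), at 20.4% ± 5.09 (SD, n = 3) the tile just over the 20% limit, had 3.70%, 6.40% and 0% in the middle, and 24.2% and 31.2% late. The tile chr16:1047001-1048000 (11 CpGs, 62 to 143 reads) had 0 methylated reads of 576 in the 6 earlier libraries, which allows up to 0.521%, and 3.77% and 12.9% late. Like the tile next to the LMF1 start, it had methylated reads late where none had been seen at the earlier passages. The tile chr16:1069001-1070000 (22 CpGs, 82 to 303 reads) had 19.5%, 14.6% and 12.9% early, 0%, 9.52% and 2.33% in the middle, and 33.3% and 23.9% late.

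The right flank held tiles of the same kind. There, 3 of 51 low-start tiles ended at least 10 points above their early mean, beside 2 of 23 in the stretch, 0 of 58 in the left flank and 0.222% of low-start autosomal tiles. The tile chr16:1107001-1108000 (16 CpGs) went from 12.4% ± 0.89 early (SD, n = 3) to 28.5% and 25.6% late, and the tile chr16:1130001-1131000 (20 CpGs) from 7.62% ± 4.07 (SD, n = 3) to 18.0% and 24.6%. The tile chr16:1129001-1130000 (10 CpGs) went from 17.96% ± 6.73 (SD, n = 3) to 52.2% and 40.4%, and had 47.1% already at passage 11. SSTR5, a somatostatin receptor gene, lies beyond SOX8 in RefSeq. High-start tiles of the right flank gave no such picture, since 114 of 142 ended at least 10 points lower, against 61 of 134 in the stretch and 42.4% of autosomal high-start tiles. A late level at least 10 points above the early one was found in 7 of 134 high-start tiles of the stretch and 2 of 142 in the right flank, beside 1.54% of the autosomes.

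Single CpGs of the 3 low-start tiles with the largest rises did not all move alike. CpGs a few bases apart share reads, so they are no separate measurements. In chr16:867001-868000 all 28 CpGs had at least 10 pooled reads early and late, and 21 of them were higher late, 15 by at least 10 points. The difference ranged from -23.6 points at position 867084 to 51.6 points at position 867337, where 26 early reads gave 11.5% and 19 late reads gave 63.2%. In chr16:1036001-1037000, 5 of 6 CpGs were higher late, and the CpG at 1036230 went from 60% early to 28.6% late while the CpG at 1036201 went from 4.55% to 41.2%. In chr16:1069001-1070000, only 10 of the 22 CpGs had enough reads. Of these, 8 were higher late, 2 by at least 10 points, and the CpG at 1069780 differed by -30.1 points.

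**Figure D5:**
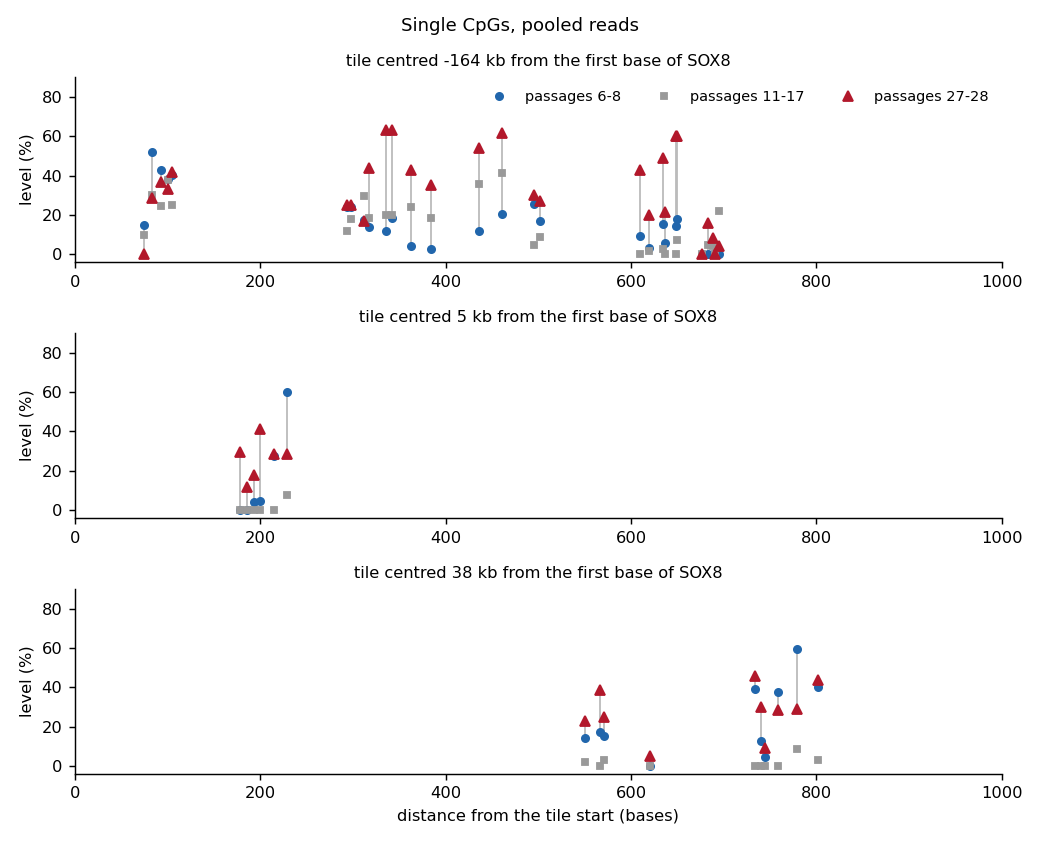
Methylation level in percent of single CpGs from pooled reads (y axis) against the distance from the tile start in bases (x axis) in the 3 low-start tiles with the largest rises; circles are passages 6 to 8, squares passages 11 to 17, triangles passages 27 and 28, and grey lines join early and late values; CpGs with fewer than 10 pooled reads early or late are not drawn. In the upper tile the largest difference is 51.6 points, and for the CpGs drawn in both other tiles the middle values lie under the late ones.

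The share of each library's reads that fell in the stretch was even. As a share of the reads over shared autosomal CpGs it lay between 0.105% at passage 28 and 0.110% at passage 17, and stood at 0.106% at passage 27. In the stretch the share at passage 28 was the lowest of all libraries, and that at passage 27 lay among the earlier ones. In the left flank the share ran from 0.146% to 0.154% and in the right flank from 0.131% to 0.136%. Both late libraries had the highest shares there, 0.153% and 0.154% in the left flank and 0.136% each in the right flank.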

How the data were processed

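RRBS was done on 8 libraries of HUES64 DNMT3A/3B double knockout cells, 1 per passage. The files deposited by the authors give, per CpG of hg19 (per the submitters' processing notes), methylated and total read counts, plus a score, which equals 1000 times the methylated share within 0.5 on every line and was not used. Aligner, caller, filters and any removal of duplicates were not given in the sources used here. Duplicates that remain would make intervals too narrow, as would reads that are counted at several CpGs of a tile.

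CpGs listed in all 8 files were summed into 1000-base tiles with at least 3 CpGs and 10 reads in every library, giving 237196 autosomal tiles. Each tile with at least 10 methylated and 10 unmethylated reads (204219) was fitted by quasi-binomial regression on passage in Python 3.11.15 (numpy 2.4.6, scipy 1.17.1), with the dispersion moderated by limma 3.58.1 in R 4.3.3, never under 1, and Benjamini-Hochberg adjustment over all tiles. The fit was tested on simulated data. Each tile was placed in the part that holds its centre.

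The stretch, its members and these lists were chosen with earlier results of these data known. Named tiles were fixed by rule: those of the gene starts, the 8 largest low-start rises and 3 largest low-start falls, the 5 largest high-start falls and 5 highest late levels, and those nearest the 20% limit (2 on each side) and both ends. Others named were chosen after their values were seen, as were the upturn counts, the windows and the change of slope. No hg19 annotation was used here. Gene intervals are those of the region's definition. RefSeq (GRCh38.p14) gave sequences and the order of genes only.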

Additional observations from a re-analysis of the deposited data

How the results depend on the processing

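The high-start tiles of the stretch ended lower than they started under every alternative run, and by less than those of the flanks. The low-start difference of the stretch, 0.748 points, stayed above 0 under all alternatives but 1, in the contrast that chose the stretch. Leaving out passage 11, 13 or 17 could not change it. On omission of single libraries it ran from 0.270 (without passage 28) to 1.53 (without passage 7), and it was 0.288 with tiles shifted by 500 bases. It was -1.02 points with classes set at passages 11 and 13 (flanks -4.75), 2.13 with a starting limit of 10% (flanks -1.10) and 4.12 with only CpGs of 10 reads in every library (6 tiles, flanks -2.84, high-start tiles of the stretch -7.13). In the flanks it was also -3.21 with tiles shifted by 500 bases, -4.52 with a limit of 30% and -1.88 with pooled reads, against -2.33. High-start tiles of the flanks gave -22.2 with a limit of 10%, -24.7 with a limit of 30% and -24.8 with pooled reads. Low-start tiles at least 10 points higher late numbered 1 of 6 with CpGs of 10 reads, 0 of 23 with shifted tiles, 0 of 12 with a limit of 10%, 4 of 34 with a limit of 30% and 5 of 34 with classes set at passages 11 and 13, against 2 of 23. Losses in the stretch numbered 9 of 38 tested with CpGs of 10 reads and 16 of 157 by limma on logit levels. Gains numbered 0 over passages 6 to 17, 8 when no minimum change was asked, 4 of 38 with CpGs of 10 reads (against 3 of 155), 0 by limma on logit levels, and between 0 (without passage 28) and 4 on omission of single libraries. Late libraries above all middle ones were found in 12 of 41 tiles with CpGs of 10 reads. Upward changes of slope numbered 7 of 38 with CpGs of 10 reads, 9 when placed after passage 13, and between 7 (without passage 17) and 25 on omission of single libraries. The lower counts with CpGs of 10 reads come with fewer tiles, and the cause of the other shifts was not tested. Over all autosomes, 5594 of 11743 tested tiles (47.6%) were losses with CpGs of 10 reads and 30316 of 237196 (12.8%) by limma on logit levels. Gains over all autosomes numbered 21 of 11743 (0.179%) with CpGs of 10 reads, where the flanks had 0 of 92. They numbered 148 of 237196 (0.0624%) by limma on logit levels and 300 of 204219 (0.147%) when no minimum change was asked. Depth limits the tiles near 10 reads, where 1 read moves the level by several points. No paired analysis was possible because every group holds a single library.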
